A study of Rattus norvegicus with 12 samples.

Results

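The genes described here are 31 markers of lymphocytes, the T cells, natural killer (NK) cells and B cells of the adaptive and cytotoxic immune system, measured in rat prostate. They were chosen by name: a probe belonged to a member when its gene name on the array, without the suffixes for predicted or mapped genes, was that member's symbol, and the brightest probe stood for the gene. By that rule 29 of the 31 members had a probe, 31 probes in all, out of 41012 probes with 35561 gene names on the array. For 27 members the probe was well above background in Cy5 on 3 or more of the 12 arrays, and these 27 were tested among the 36098 probes kept by the same filter. The 2 members without a probe by name, Mzb1 and Fcer2, are taken up with the B cell genes.

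The study asked what partial bladder outlet obstruction does to the rat prostate and how Eviprostat, a plant-based medicine used for benign prostatic hyperplasia, alters it. Male rats of 10 weeks formed 4 groups of 3 arrays each. The sham/vehicle group had a sham operation and 0.1% Tween 80, the sham/Eviprostat group a sham operation and Eviprostat, the obstruction/vehicle group a partial obstruction and 0.1% Tween 80, and the obstruction/Eviprostat group a partial obstruction and Eviprostat. Eviprostat was given at 18 mg/kg per dose, 36 mg/kg per day, for 5 days, and tissue was taken 2 h after the last dose. Dosing of sham animals began later after surgery than dosing of obstructed animals, so the operation and the time since surgery cannot be told apart. The labels call the arrays of a group biological replicates but also state that prostate tissue was pooled within a group. The p-values below therefore measure the spread between arrays, which may be technical, and not that between animals.

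Lymphocytes recognise antigen through receptors that signal in company with fixed partner chains. In T cells the CD3 chains carry the signal inward, CD4 or CD8 binds the presenting molecule, and the kinases Lck and Zap70 start the cascade. CD28 and CTLA-4 compete for the same ligands with opposite effects, the first stimulating and the second restraining the cell. Cytotoxic T cells and NK cells kill with perforin and granzymes, while B cells signal through the CD79 chains and the adaptor BLNK. In prostate, lymphocytes are a minor population among epithelium and stroma, and they gather where the gland is inflamed.

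What was measured on each array was the binding of labelled RNA to probes of 60 bases. The probes of 5 members are shown because the results turn on them: Ctla4 and Gzma were called different between groups, and Cd3e, Lck and Cd79b stand for the T cell receptor complex, its kinase and the B cell receptor. They are written 5′ to 3′ as the array design gives them, with positions on rat build rn3. The Ctla4 probe lies on the plus strand at chr9:59642816-59645948 and the Gzma probe on the minus strand at chr2:44418398-44418457. The Cd3e probe is on the minus strand at chr8:47959079-47959138, the Lck probe on the minus strand at chr5:148723208-148725315 and the Cd79b probe on the minus strand at chr10:95717984-95718043. The Ctla4 and Lck intervals are longer than the 60 bases of a probe, so those probes join separate exons.
Ctla4: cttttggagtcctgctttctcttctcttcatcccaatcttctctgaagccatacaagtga
Gzma: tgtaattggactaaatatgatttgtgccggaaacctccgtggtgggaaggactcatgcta
Cd3e: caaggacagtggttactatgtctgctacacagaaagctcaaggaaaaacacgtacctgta
Lck: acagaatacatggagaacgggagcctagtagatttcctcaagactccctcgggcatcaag
Cd79b: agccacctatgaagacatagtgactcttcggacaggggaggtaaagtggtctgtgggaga
The GC content was 43.3% in the Ctla4 and Cd3e probes, 45.0% in the Gzma probe, 50% in the Lck probe and 51.7% in the Cd79b probe. Some members are neighbours on the chromosome. The probes of all 3 CD3 chains lie together on chromosome 8, that of Cd3g starting at 47933142, that of Cd3d at 47945435 and that of Cd3e at 47959079. Cd8b at 104796970 and Cd8a at 104837964 lie together on chromosome 4, and Cd28 at 59514654 and Ctla4 on chromosome 9.

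Lymphocyte probes were detected about as often as probes in general. Of the 29 members with a probe, 19 were well above background in Cy5 on all 12 arrays, against 66% of all probes on the array. On a single array, between 22 and 28 of the 29 members were above background, and the 4 lowest counts, 22 or 23, were those of slide 1, which had been scanned on another day and was dimmer. Slide 1 had a median Cy5 intensity of 401 to 416 per array, and slides 2 and 3 had 576 to 677. Between 70.9% and 88.4% of all spots were above background per array. Prostate tissue itself was plain: 9 of 10 genes of prostate epithelium were above background on all 12 arrays.

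The signal of each probe over its own local background set what could be seen. The median ratio of spot to background was 14.3 for Ctla4, with 35.0 on its brightest array, 7.71 for Cd3d, 6.70 for Blnk, 3.71 for Zap70, 3.22 for Cd8b, 3.04 for Cd3g, 2.90 for Nkg7, 2.85 for Gzma, 2.37 for Foxp3 and 1.24 for Cd8a, whose highest value was 2.30. The medians of the other members ran from 1.07 to 1.82. Cd28, the costimulatory receptor, was above background on 0 arrays, and Il7r, the interleukin 7 receptor of resting T cells, on 1 array, which was one of obstruction/vehicle. Neither was tested. Cd2, a T cell adhesion receptor, passed with 3 arrays, 2 of obstruction/vehicle and 1 of obstruction/Eviprostat. Cd3e was above background on 7 arrays, Ifng on 8, Cd79b and the plasma cell receptor gene Tnfrsf17 on 10, and Cd4, Cd72 and Cr2 on 11. Cd2 was above background on no sham array, and not on obstruction/vehicle replicate 1. The dim sham/vehicle arrays were set, in Cy5 alone, at no less than the lowest signal above background. Obstruction/vehicle was then at 1.1-fold the sham/vehicle level. That value includes the dim replicate 1, so it is no lower bound on a rise. The fitted ratio had an adjusted p of 0.625 by limma.

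**Figure D1:**
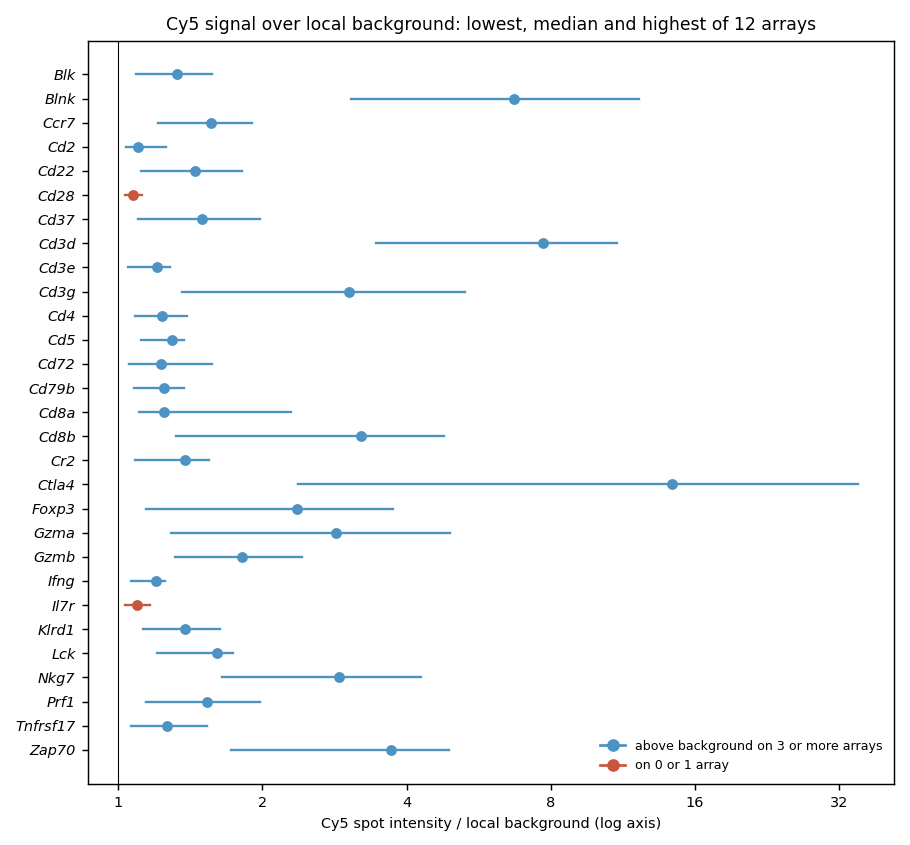
Cy5 spot intensity divided by local background for the 29 members with a probe, on a log axis. Points are medians and lines run from the lowest to the highest of 12 arrays; blue members were above background on 3 or more arrays, and Cd28 and Il7r, in red, were not. Probes differ in how well they bind, so the order of members along the axis has no meaning.

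All further values are log2 ratios of Cy5, the RNA of the array's own group, to Cy3, sham/vehicle RNA, which every array carried. The sham/vehicle arrays thus set this RNA against itself, and groups were compared with those arrays and not with a ratio of 0. Differences were tested with limma in 1 fit of 12 arrays, with Benjamini-Hochberg adjustment over all kept probes and a threshold of 0.05 for the adjusted p. The 3 slides held 1 array of each group, and slide and replicate number coincided. Because same-numbered arrays deviated together, values with the slide as a block are given where they change a call.

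Obstruction under vehicle raised Cd8a and Gzma and lowered Ctla4 among the lymphocyte markers. Of the 27 tested members, 3 passed the test, a share near the 11.6% of all probes, with 2 higher and 1 lower against 7.16% and 4.45% of all probes. The median difference of the members was 0.11, and that of all kept probes was -0.01. Unadjusted p-values were under 0.05 for 8 of the 27 members and for 8808 of the 36098 probes. For the members that were not called, missing the threshold does not show that they did not differ. The 95% interval lay within a difference of 1 on the log2 scale either way for 25 of the 27 members, the exceptions being Cd8a and Ctla4. These intervals hold for this fit, whose background offset of 50 draws ratios of weak spots towards 0, and are no bound across scalings. When the processing or the arrays were varied, the difference ran from 0.57 to 1.92 for Cd8a and from 0.23 to 0.92 for Cd4. The values of the 3 sham/vehicle and the 3 obstruction/vehicle arrays did not overlap for 5 members, Cd37, Cd8a, Cd8b, Ctla4 and Gzma, while 24.7% of all probes were separated in that way. In a bulk tissue, fewer cells of a type and less RNA per cell cannot be told apart.

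**Figure D2:**
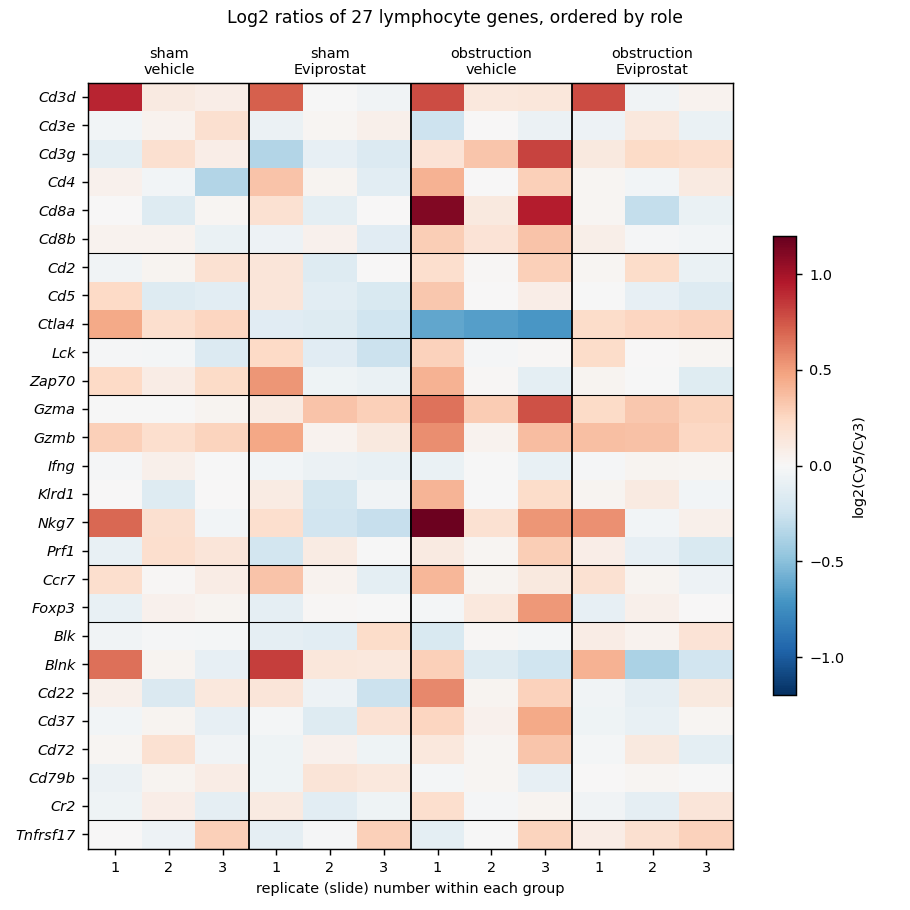
Log2 ratios of Cy5 over Cy3 for the 27 tested members (rows, ordered by role from T cell receptor genes to the plasma cell gene) on the 12 arrays (columns, by group and replicate number). The row of Ctla4 is negative on all 3 obstruction/vehicle arrays, and the rows of Cd3d and Blnk are high in the replicate 1 column of every group.

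The probe of Ctla4, the inhibitory receptor of activated and regulatory T cells, showed the clearest pattern. Its median ratio of spot to background, 14.3, was the highest of the members, followed by 7.71 for Cd3d. Of other T cell genes, Cd3e was above background on 7 arrays, Cd2 on 3 and Cd28 on 0. Whether the Ctla4 probe reports RNA of T cells was not tested. Its log2 ratios were 0.46, 0.20 and 0.26 in sham/vehicle, -0.14, -0.16 and -0.23 in sham/Eviprostat, -0.62, -0.66 and -0.70 in obstruction/vehicle and 0.22, 0.26 and 0.28 in obstruction/Eviprostat, for replicates 1, 2 and 3 in that order. The obstruction/vehicle arrays were lower than every other array, the sham/Eviprostat arrays lay between, and sham/vehicle and obstruction/Eviprostat overlapped. Ctla4 fell by 0.97 ± 0.08 (SE, n = 3 arrays per group) in obstruction/vehicle against sham/vehicle, with an adjusted p of 1.29e-05 by limma. On the separate slides the difference was -1.08, -0.87 and -0.96.

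The 2 channels of the Ctla4 spot bear on how that difference is read. The raw Cy5 intensity of the spot ran from 815 to 12358 over the 12 arrays, and its range on slide 1, 815 to 1156, lay below that of slides 2 and 3, where it was 3833 to 12358. In Cy3, which carried sham/vehicle RNA on every array, the level of the spot ran from 10.53 to 12.18 on the log2 scale. The ratio removes what both dyes share on an array. In Cy5 alone the Ctla4 difference was -0.76 with an adjusted p of 0.366 by limma, and in Cy3 alone, where each array carried the same kind of RNA, it was 0.20 with an adjusted p of 0.975. Centring each array on its median in place of loess gave -0.90 and an adjusted p of 0.207, so the Ctla4 call depended on the ratio and on loess.

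Cd8a, the alpha chain of the CD8 coreceptor of cytotoxic T cells, had log2 ratios of 0.0023, -0.16 and 0.02 in sham/vehicle and 1.11, 0.12 and 0.94 in obstruction/vehicle. Replicates 1 and 3 of obstruction/vehicle were high, and replicate 2 was much nearer to the sham/vehicle arrays, though above them. In Cy5 alone replicate 2 was not low: its Cd8a level was 8.06 on the log2 scale, beside 8.55 and 8.25 in replicates 1 and 3 and 6.87 to 7.14 in sham/vehicle. Its Cy3 level, 7.94, was higher than the 7.43 and 7.31 of replicates 1 and 3. The Cd8a probe was well above background in Cy3 on 6 of the 12 arrays. Cd8a rose by 0.77 ± 0.21 (SE, n = 3 arrays per group, 95% interval 0.32 to 1.22), with an adjusted p of 0.0322 by limma and differences of 1.11, 0.27 and 0.92 on the separate slides.

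Cd8a was the least steady of the 3 calls. The adjusted p was 0.143 on slides 2 and 3 alone, 0.127 in a fit of the 6 arrays compared and 0.0548 with median centring. Leaving out 1 array ended the call for each of the 3 sham/vehicle arrays, for obstruction/vehicle replicates 1 and 3 and for obstruction/Eviprostat replicate 3, with differences from 0.57 to 0.80 and adjusted p-values from 0.0511 to 0.136. In Cy3, which carried sham/vehicle RNA on every array, the Cd8a spot also differed by 0.51, with an adjusted p of 0.708. The size of the difference varied with the scaling: it was 1.28 in Cy5 alone, 1.18 with median centring, 1.04 with a background offset of 10 in place of 50 and 1.92 in the log ratio of the scanner software. With slide as a block the adjusted p was 0.00139.

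Gzma, the granzyme A protease of cytotoxic granules, had log2 ratios of -0.0073, -0.0044 and 0.03 in sham/vehicle and 0.65, 0.30 and 0.76 in obstruction/vehicle. All 3 obstruction/vehicle arrays were above all 3 sham/vehicle arrays. Gzma rose by 0.57 ± 0.11 (SE, n = 3 arrays per group) with an adjusted p of 0.00674 by limma, and by 0.66, 0.31 and 0.73 on the separate slides. The call was lost with median centring, at a difference of 0.63 and an adjusted p of 0.14, and in a fit of the 6 arrays compared, at 0.57 and 0.0531. Over all 23 alternatives the Gzma difference ran from 0.47 to 0.87.

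**Figure D3:**
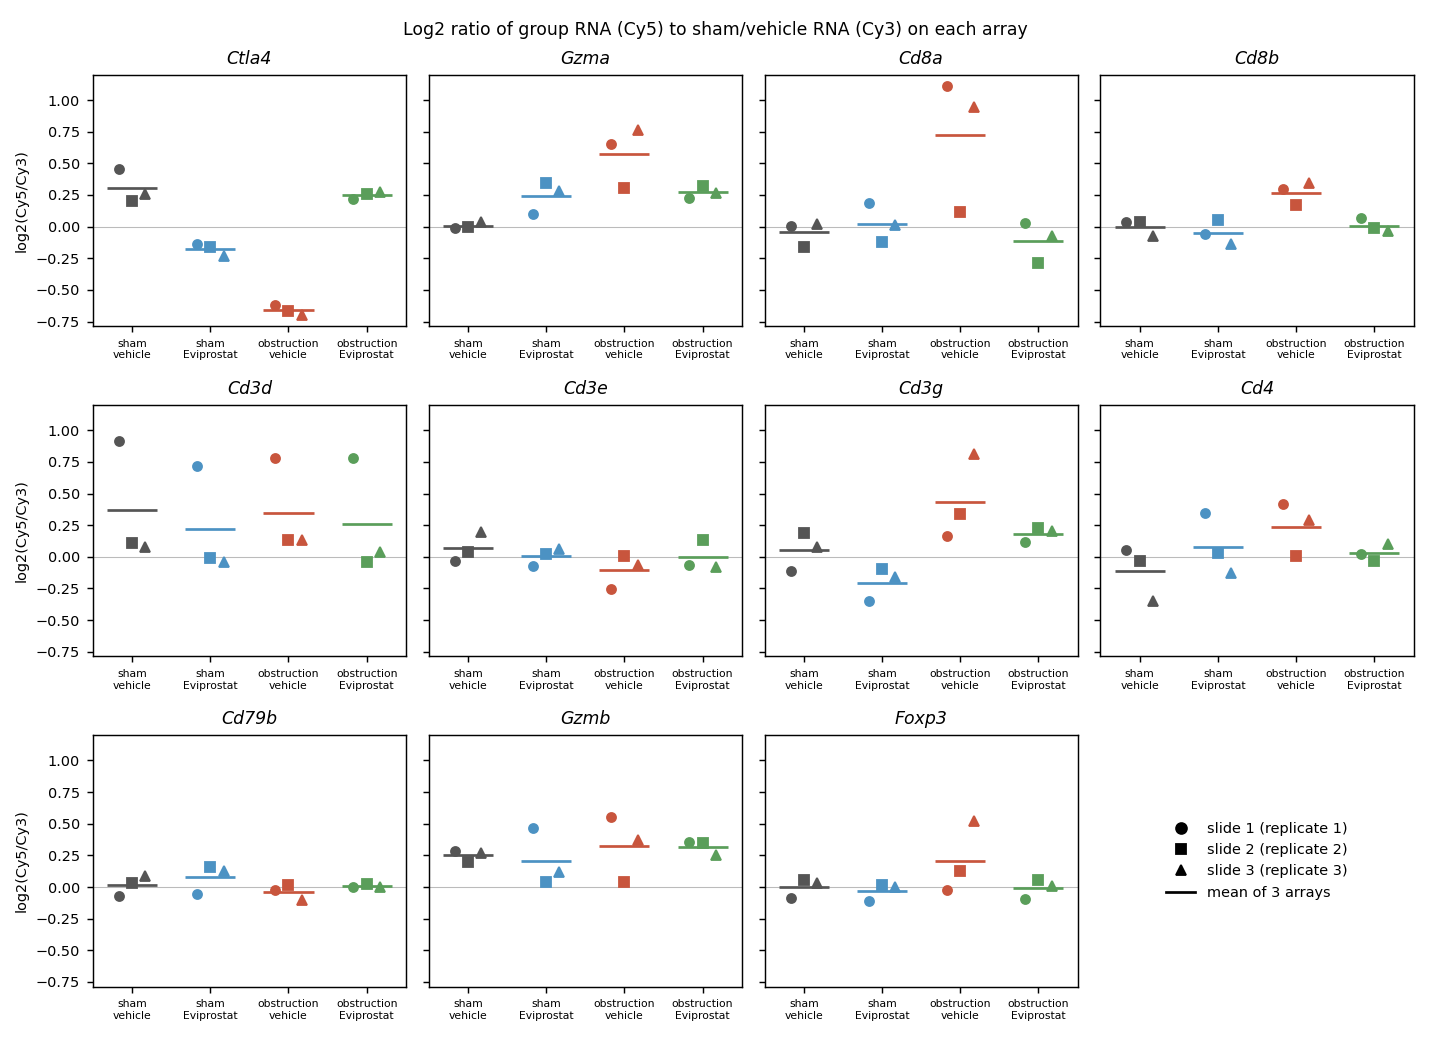
Log2 ratio of Cy5 over Cy3 on each of the 12 arrays for 11 members, with symbols for the slide and a line for the mean of 3 arrays. Ctla4 is lowest on the obstruction/vehicle arrays, Gzma is highest there on average, Cd8a is high on 2 of the 3, and Cd3d is separated by slide and not by group.

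The CD3 chains did not move together. Cd3d had log2 ratios of 0.91, 0.11 and 0.08 in sham/vehicle and 0.78, 0.13 and 0.13 in obstruction/vehicle, a difference of -0.02 ± 0.30 (SE) with an adjusted p of 0.983 by limma. Its slide 1 values, 0.72 to 0.91 in the 4 groups, stood apart from those of slides 2 and 3, which ran from -0.04 to 0.13. Cd3e, near background, had -0.03, 0.04 and 0.19 in sham/vehicle and -0.25, 0.0056 and -0.07 in obstruction/vehicle, a difference of -0.17 ± 0.10 with an adjusted p of 0.333. Cd3g had -0.11, 0.19 and 0.08 in sham/vehicle and 0.16, 0.34 and 0.81 in obstruction/vehicle, and 1 obstruction/vehicle array lay within the sham/vehicle range. The Cd3g difference was 0.38 ± 0.15 with an adjusted p of 0.127 by limma, and 0.0232 with slide as a block.

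The other coreceptor genes had positive differences that missed the threshold. Cd4, which marks helper T cells and is also made by rat macrophages, had log2 ratios of 0.05, -0.04 and -0.35 in sham/vehicle and 0.41, 0.0091 and 0.29 in obstruction/vehicle. Its difference was 0.35 ± 0.15 with an adjusted p of 0.164 by limma, and 0.0465 with slide as a block. Cd8b, the beta chain that pairs with Cd8a on T cells, had 0.04, 0.04 and -0.08 in sham/vehicle and 0.30, 0.17 and 0.34 in obstruction/vehicle. Its difference was 0.27 ± 0.08 with an adjusted p of 0.0621 by limma, and 0.027 with slide as a block. Foxp3, the transcription factor of regulatory T cells, had -0.09, 0.05 and 0.03 in sham/vehicle and -0.02, 0.12 and 0.52 in obstruction/vehicle, with a difference of 0.21 ± 0.12 and an adjusted p of 0.345 by limma.

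Among the cytotoxic and NK genes, Gzma was the 1 of 6 that passed the test. Gzmb, granzyme B, had log2 ratios of 0.28, 0.20 and 0.27 in sham/vehicle and 0.56, 0.04 and 0.37 in obstruction/vehicle, overlapping groups with a difference of 0.07 ± 0.14 and an adjusted p of 0.808 by limma. A second Gzmb probe had a difference of -0.03 and an adjusted p of 0.876 by limma. The array design places it at 34916380 on chromosome 15 and the first probe at 35211158, and whether both read the same gene was not tested. Nkg7, a membrane protein of cytotoxic granules, had 0.69, 0.19 and -0.03 in sham/vehicle and 1.18, 0.19 and 0.53 in obstruction/vehicle, and its difference of 0.35 ± 0.26 had an adjusted p of 0.471, against 0.0332 with slide as a block. The NK receptor gene Klrd1 had a difference of 0.26, the perforin gene Prf1 of 0.06 and the interferon gamma gene Ifng of -0.07, and none of the 3 passed the test. The T cell kinases Lck and Zap70 differed by 0.16 and -0.08, the T cell surface genes Cd5 and Cd2 by 0.15 and 0.11, and the homing receptor gene Ccr7 by 0.08, with no call. With slide as a block 8 of the 27 members were called in this comparison, the 3 above with Cd37, Cd3g, Cd4, Cd8b and Nkg7, while the share of all probes called by that fit was 25.3%. Without obstruction/vehicle replicate 2, 6 members were called, Cd37, Cd8a, Cd8b, Ctla4, Gzma and Klrd1, and 19.9% of all probes.

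None of the 8 measured B cell and plasma cell genes was called by limma in any of the 4 comparisons, a count to be read against the share of all probes. In obstruction/vehicle against sham/vehicle limma called 0 of 8, against 11.6% of all probes, and 1 had an unadjusted p under 0.05, against 8808 of 36098 probes; the count at that unadjusted p was 1 in obstruction/Eviprostat against obstruction/vehicle and 0 in the other comparisons. Cd79b, a signalling chain of the B cell receptor, had log2 ratios of -0.07, 0.03 and 0.09 in sham/vehicle and -0.03, 0.02 and -0.10 in obstruction/vehicle, a difference of -0.05 ± 0.08 with an adjusted p of 0.772. Its 95% interval ran from -0.24 to 0.13. The member with the lowest p was Cd37, a tetraspanin of mature B cells, whose difference of 0.29 ± 0.11 had an adjusted p of 0.139, and 0.0432 with slide as a block. Cd22, an inhibitory B cell receptor, differed by 0.29, Cd72 by 0.11, the complement receptor Cr2 by 0.10, the kinase Blk by -0.03, Tnfrsf17 by -0.03 and Blnk by -0.24. The second Cr2 probe differed by -0.0090, with the opposite sign and no call on either probe. Fcer2, the low-affinity IgE receptor, and Mzb1, a chaperone of antibody-secreting cells, were each found through an updated name and were above background on 12 arrays. Their differences were 0.02 and 0.06, with adjusted p-values of 0.933 and 0.801 by limma.

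In obstructed rats given Eviprostat, Ctla4 was higher and Cd8a lower than in obstructed rats given vehicle. Of the 27 members, these 2 passed the test in obstruction/Eviprostat against obstruction/vehicle, against 9.8% of all probes. The 1 higher and 1 lower call stand against 3.9% and 5.89% of all probes. This comparison shares the obstruction/vehicle arrays with the one above, so opposite signs in the 2 are no independent evidence. The members' median difference was -0.15 and that of all kept probes 0.01. The groups did not overlap for 6 members, Blk, Cd37, Cd5, Cd8a, Cd8b and Ctla4, against 24.3% of all probes.

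Ctla4 rose by 0.91 ± 0.08 (SE, n = 3 arrays per group) with an adjusted p of 2.88e-05 by limma, and by 0.84, 0.92 and 0.97 on the separate slides. In Cy5 alone the Ctla4 difference was 1.08 with an adjusted p of 0.185, and median centring gave 0.86 with 0.274. Cd8a had log2 ratios of 0.03, -0.29 and -0.08 in obstruction/Eviprostat, each below all 3 obstruction/vehicle values. Cd8a fell by 0.84 ± 0.21 with an adjusted p of 0.0244 by limma, and the slides gave -1.08, -0.40 and -1.02. The Cd8a call was lost on slides 2 and 3 alone, at an adjusted p of 0.0968, with median centring, at 0.0658, in the 6 arrays alone, at 0.103, and without obstruction/vehicle replicate 1 or 3 or obstruction/Eviprostat replicate 2 or 3, at 0.0759 to 0.109. Its size in the scanner software's log ratio was -1.69.

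Gzma did not pass in the treated obstructed rats. Its log2 ratios were 0.23, 0.32 and 0.27 in obstruction/Eviprostat, and obstruction/vehicle replicate 2, at 0.30, lay within that range. The Gzma difference was -0.30 ± 0.11 with an adjusted p of 0.132 by limma, and without obstruction/vehicle replicate 2 it was -0.44 with an adjusted p of 0.00786. Without that array, 5 members were called in this comparison, Cd37, Cd8a, Cd8b, Ctla4 and Gzma, and 17.7% of all probes.

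Of the other genes described in full, Cd3d differed by -0.09 ± 0.30, Cd3e by 0.10 ± 0.10, Cd3g by -0.25 ± 0.15 and Cd4 by -0.21 ± 0.15 between obstruction/Eviprostat and obstruction/vehicle. Foxp3 differed by -0.22 ± 0.12, Cd79b by 0.04 ± 0.08 and Gzmb by -0.0028 ± 0.14. Their adjusted p-values ran from 0.338 for Foxp3 to 0.995 for Gzmb by limma. Cd8b differed by -0.26 ± 0.08 with an adjusted p of 0.0801, and 0.0339 with slide as a block. That fit also called Cd37, at -0.29 with an adjusted p of 0.0422, and Nkg7, at -0.44 with 0.0113, which made 5 members in all against 23.5% of all probes.

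**Figure D4:**
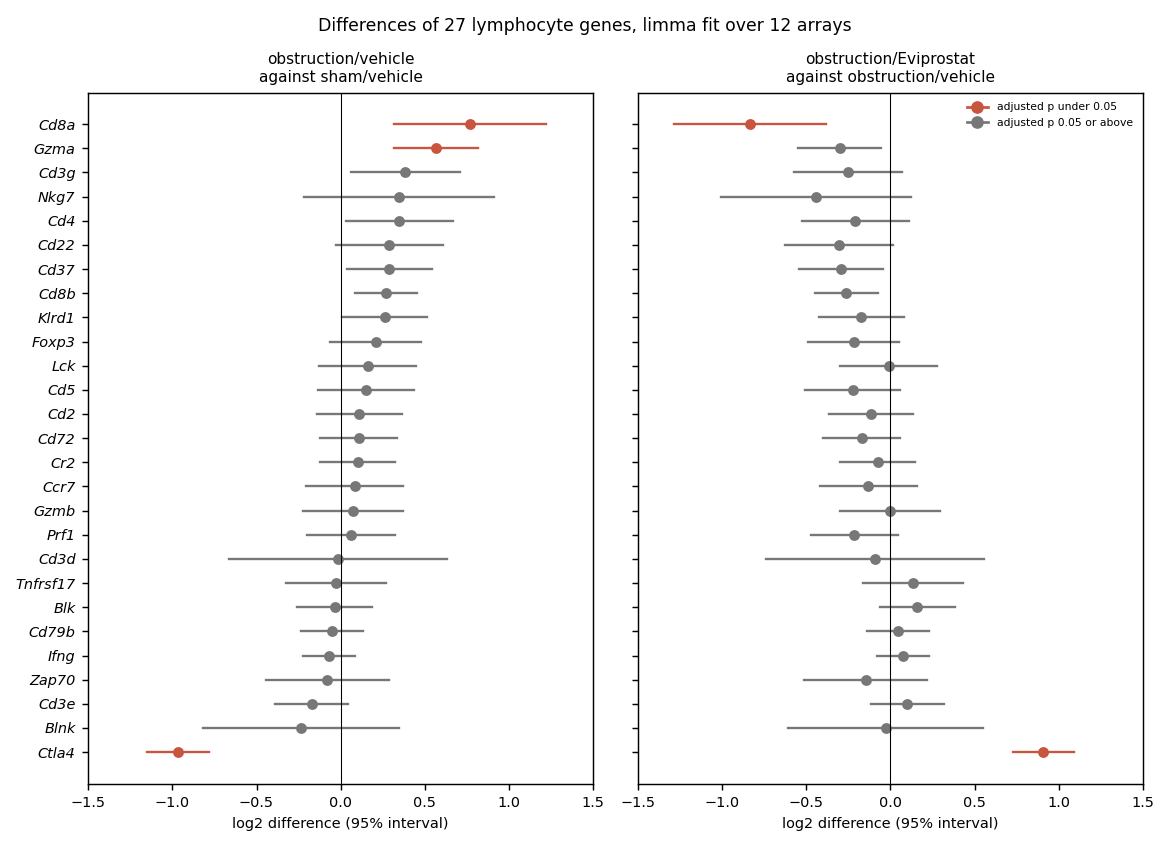
Log2 differences with 95% intervals for the 27 tested members in obstruction/vehicle against sham/vehicle (left) and obstruction/Eviprostat against obstruction/vehicle (right), from the limma fit of 12 arrays, with called members in red. Both panels use the obstruction/vehicle arrays; Ctla4 is at -0.97 on the left and 0.91 on the right, and Cd8a at 0.77 and -0.84.

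Sham rats given Eviprostat and sham rats given vehicle differed in 1 of the 27 members, against 1.53% of all probes, and 0.659% in the lower direction. Ctla4 fell by 0.48 ± 0.08 (SE, n = 3 arrays per group) in sham/Eviprostat against sham/vehicle, with an adjusted p of 0.0127 by limma, and the slides gave -0.59, -0.36 and -0.49. In Cy5 alone the Ctla4 difference was only -0.17, with an adjusted p of 1, while in Cy3, which held sham/vehicle RNA in both groups, it was 0.32. The call was also lost with median centring, in the 6 arrays alone, at 0.0593, and without sham/vehicle replicate 1 or 3 or sham/Eviprostat replicate 2 or 3, at 0.0524 to 0.0732. Cd8a had log2 ratios of 0.19, -0.12 and 0.0091 in sham/Eviprostat, and its difference from sham/vehicle was 0.07 ± 0.21 with an adjusted p of 0.977. Gzma had 0.10, 0.34 and 0.28, all above the sham/vehicle arrays, with a difference of 0.23 ± 0.11 and an adjusted p of 0.519. For 3 members the groups did not overlap, Ctla4, Gzma and Ifng, and 19% of all probes were separated likewise. In this fit, with its offset of 50, the intervals of all 27 members lay within a difference of 1 on the log2 scale.

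Under Eviprostat, obstructed and sham rats differed in 1 of the 27 members, against 2.28% of all probes, and 0.97% in the higher direction. Ctla4 was higher by 0.43 ± 0.08 in obstruction/Eviprostat than in sham/Eviprostat, with an adjusted p of 0.02 by limma. The Ctla4 call was lost in Cy5 alone, with median centring, with an offset of 10, at 0.0597, and without sham/Eviprostat replicate 2 or 3 or any 1 of the obstruction/Eviprostat arrays, at 0.0554 to 0.106. Cd3g had a difference of 0.39 ± 0.15 with an adjusted p of 0.286, and Cd8a of -0.14 ± 0.21 with 0.876. Blnk, the adaptor that couples the B cell receptor to its effectors, differed by -0.43 ± 0.27 with an adjusted p of 0.598, and 0.00685 with slide as a block. Its slide 1 values were the highest of each group, 0.66, 0.83, 0.29 and 0.42 in sham/vehicle, sham/Eviprostat, obstruction/vehicle and obstruction/Eviprostat, and the difference was -0.41, -0.51 and -0.36 on the 3 slides.

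The effect of Eviprostat in obstructed rats differed from that in sham rats for 1 of the 27 members, against 8.66% of all probes. Of all probes, 3.78% were called higher and 4.89% lower. For Ctla4 the difference between the effects was 1.39 ± 0.12, with an adjusted p of 2e-05 by limma: 0.91 in obstructed and -0.48 in sham rats. For Cd8a it was -0.90 ± 0.29 with an adjusted p of 0.0828, and 0.00544 with slide as a block. For Gzma it was -0.54 ± 0.16 with 0.0624, and 0.0234 with slide as a block. Without obstruction/vehicle replicate 2 all 3 were called, Cd8a at -1.21 and Gzma at -0.67. Without sham/Eviprostat replicate 1 Gzma was called beside Ctla4. The 8.66% of all probes is for the fit of all arrays, so these added calls are not a result about the members. A test for any difference among the 4 groups called the same 3 members as obstruction under vehicle, Ctla4 at an adjusted p of 3e-05, Gzma at 0.0317 and Cd8a at 0.0492, against 11.7% of all probes. The 11.7% is for the fit without a block, and the block raised the share of all probes wherever that share is given above. With slide as a block the test among the 4 groups also called Blnk at 0.00466, Cd3g at 0.00529, Cd8b at 0.03 and Nkg7 at 0.00198, a count not to be set against 11.7%. Ctla4 was its only call when any 1 of the 3 sham/vehicle arrays, the 3 obstruction/Eviprostat arrays, sham/Eviprostat replicate 3 or obstruction/vehicle replicate 3 was left out. Obstruction/vehicle had the highest mean of the 4 groups for 18 of the 27 members, against 31.4% of all probes.

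The Cy3 channel, which held sham/vehicle RNA on each array, was tested in the same way. For any difference among the groups in Cy3, limma called 0 of the 27 members and 1 had an unadjusted p under 0.05, and 0.18% of all probes were called. In Cy3, 15 of the 29 members with a probe were above background on all 12 arrays, against 58.7% of all probes. Among the others, Cd79b was above it on 5 arrays, Cd3e on 4, Cd4 on 2, Ifng on 1 and Cd2 on 0. Where Cy3 was near background, the absence of a call cannot show that Cy3 was equal. The channel was not free of group differences for every gene: of 5 seminal vesicle genes, 4 were also called in Cy3 between obstruction/vehicle and sham/vehicle, with a median of 3.00.

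Further lists gave the wider lymphocyte pathways. Their counts, here and in the next paragraphs, stand beside the shares of all probes. In obstruction/vehicle against sham/vehicle 7.16% of all probes were called higher and 4.45% lower. In obstruction/Eviprostat against obstruction/vehicle the shares were 3.9% and 5.89%. Of 29 measured T and NK genes outside the members, 2 rose in obstruction/vehicle against sham/vehicle and none fell: Lcp2, an adaptor beneath the T cell receptor, by 1.51 ± 0.34 (SE, adjusted p 0.0138 by limma), and Fyn, a Src family kinase, by 1.23 ± 0.21 (adjusted p 0.00219). Both genes are also expressed outside T cells. The 2 rises made up 6.9% of the list, near the 7.16% of all probes called higher, and the median of the list was 0.07. In obstruction/Eviprostat against obstruction/vehicle 3 of the 29 were called lower and 0 higher, Lcp2 at -1.47 and Fyn at -1.13 among them. The 3 calls were 10.3% of the list, near the 9.8% of all probes called in either direction. Of 15 further B and plasma cell genes 5 rose and none fell, with a median of 0.30. The 4 largest were Sdc1, a proteoglycan of plasma cells and epithelia, at 2.60, the kinases Lyn at 1.76 and Syk at 1.1, and the receptor Cd40 at 1.04. In obstruction/Eviprostat against obstruction/vehicle 5 of the 15 were called lower and 0 higher, with Sdc1 at -1.84 and Lyn at -1.72. Macrophages, epithelium or both are known to express these genes, and their part was not tested.

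Several signals that attract or sustain lymphocytes were higher after obstruction. Of 18 measured genes, 7 were called higher in obstruction/vehicle and 0 lower, with a median of 0.21. They included the chemokine Ccl21, which guides T cells and dendritic cells, at 1.45 ± 0.15, the adhesion molecules Icam1 at 1.44 ± 0.13 and Vcam1 at 1.25 ± 0.19, and the B cell chemokine Cxcl13 at 1.05 ± 0.16, with adjusted p-values of 5.05e-05, 2.38e-05, 0.000936 and 0.00123 by limma. Between obstruction/Eviprostat and obstruction/vehicle 6 of the 18 were called lower and 0 higher, among them Icam1 at -1.36, Vcam1 at -1.25, Cxcl13 at -1.22 and Ccl21 at -0.87. The Icam1 probe also differed in Cy3, by 0.86 in the first comparison and -0.87 in the second.

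Markers of other leukocytes also moved in these arrays. All 12 macrophage and monocyte genes were called higher in obstruction/vehicle against sham/vehicle, with a median of 1.73, as were 4 of 7 neutrophil genes, with a median of 0.66. The mean log2 ratio of the macrophage genes was 1.58 to 2.22 on the obstruction/vehicle arrays and -0.0069 to 0.06 on the sham/vehicle arrays. For the 27 lymphocyte members the corresponding ranges were 0.03 to 0.28 and 0.04 to 0.12, which overlapped. The lymphocyte mean includes Ctla4, which fell. The median log2 Cy5 level was 7.59 for the lymphocyte members and 10.47 for the macrophage genes. Because the background offset draws ratios of weak spots towards 0, the sizes of the 2 means cannot be compared directly. Of 9 genes shared by all leukocytes 5 were called higher and 0 lower, with a median of 1.26 and differences from -0.22 to 1.83. Ptprc, which encodes CD45, was among those not called, with a difference of -0.06 ± 0.09 and an adjusted p of 0.764 by limma. It is 1 gene of the list and does not stand for the list. In obstruction/Eviprostat against obstruction/vehicle 10 of 12 macrophage, 4 of 7 neutrophil and 5 of 9 leukocyte genes were called lower.

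**Figure D5:**
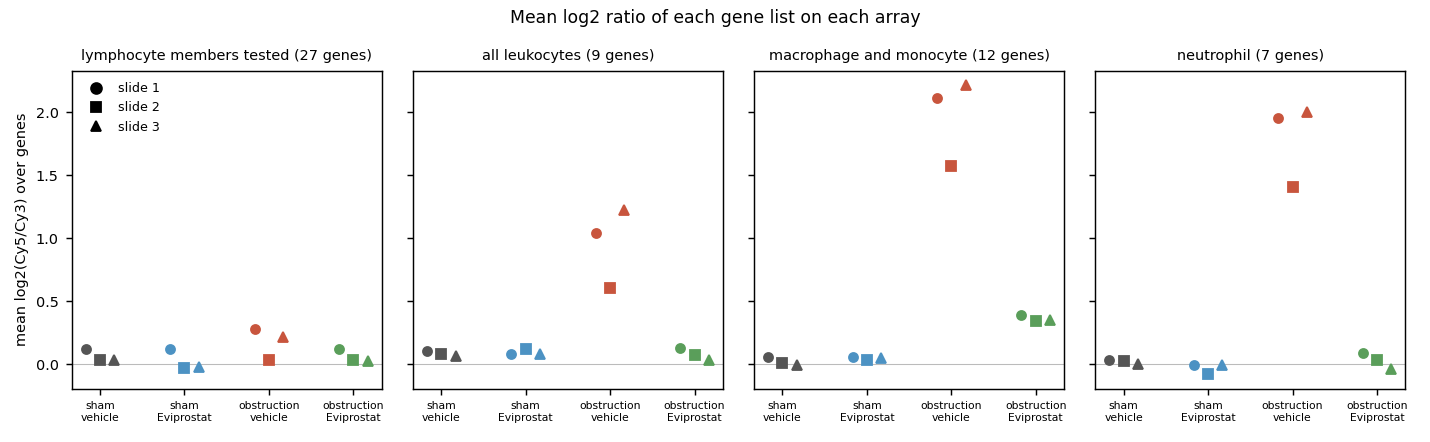
Mean log2 ratio of Cy5 over Cy3 on each array for the 27 tested lymphocyte members and for 3 lists of other leukocyte genes, with symbols for the slide. On the obstruction/vehicle arrays the macrophage mean is 1.58 to 2.22 and the lymphocyte mean 0.03 to 0.28; replicate 2 is the lowest of the 3 in every list. The lists differ in signal level, so the sizes of their means cannot be compared directly.

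Markers of tissues beside the prostate also moved with the groups. Of 5 seminal vesicle genes 4 were called higher in obstruction/vehicle and 4 in sham/Eviprostat, each against sham/vehicle, with medians of 6.24 and 5.66. Of all probes 7.16% and 0.87% were called higher in these comparisons. Of 5 skeletal muscle genes 4 were called lower in obstruction/vehicle, with a median of -1.62, and 4 higher in sham/Eviprostat, with a median of 1.31. Among 10 genes of prostate epithelium 4 were called lower in obstruction/vehicle, with a median of -0.46. The part of tissue composition in the values of Ctla4, Cd8a and Gzma was not tested. All 5 seminal vesicle genes and all 5 skeletal muscle genes were above background on all 12 arrays.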

How the data were processed

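Each array carried its group's RNA in Cy5 and sham/vehicle RNA in Cy3, with no dye swap; per the labels' protocols, the amount of RNA labelled was 1500 ng in sham/vehicle and 300 ng in the remaining groups. The authors deposited spot and background intensities from Agilent Feature Extraction 9.5.1.1 and its log10 ratio of red over green, per the file headers. From these deposited intensities, log2 ratios were computed with limma 3.58.1 in R 4.3.3: normexp background correction (offset 50), loess within each array, weight 0 for control and outlier spots, and spots of a probe averaged. Probes with Cy5 well above background on 3 or more of 12 arrays were kept. The offset draws ratios of weak spots towards 0. The fit was tested on simulated arrays with independent errors and no shared slide effect, unlike the data. It recovered 38% of planted log2 changes of 0.5, 78% of those of 1 and 100% of those of 2 and of 4.

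The 12 arrays were fitted together, 1 mean per group, with 8 residual degrees of freedom (lmFit, eBayes). Replicate numbers mark the slide, per the file headers. The deviations of same-numbered arrays from their group means correlated at 0.155 to 0.779 in 18 pairs. In 36 pairs of different number the correlations ran from -0.702 to 0.557. Replicates 2 and 3 of different groups correlated positively, at up to 0.557. The correlations thus set slide 1 apart, and they do not tell slide 2 from slide 3. A group kept its position on the slide, so the 2 cannot be told apart. Genes given full statistics were the called members and Cd3d, Cd3e, Cd3g, Cd4, Cd8a, Cd79b, Gzmb and Foxp3; Cd8b, Nkg7, Cd37, Blnk and the printed probes were added after their values were seen. Further lists give up to 4 called genes with the largest obstruction difference, and Ptprc, which was not called, was named outside that rule. Members and lists were chosen with earlier results of these data known. Names were updated through the RefSeq annotation of GRCr8, used for names only. Alternatives changed the dye normalization, offset, filter, channel, block, samples, probe and names. Figures were drawn with matplotlib 3.10.9.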

Additional observations from a re-analysis of the deposited data

Results flagged for a closer look

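The effect of Eviprostat on Ctla4 differed between obstructed and sham rats by 1.39 on the log2 scale, with a standard error of 0.12 and an adjusted p of 2e-05 by limma. Ctla4 drew attention because the difference between the effects was itself tested and passed. Whether the Ctla4 probe reports RNA of T cells was not tested. The effect was 0.91 in obstructed and -0.48 in sham rats, and its direction was the same on each of the 3 slides in both: 0.84, 0.92 and 0.97 in obstructed rats and -0.59, -0.36 and -0.49 in sham rats. In sham rats it was only -0.17 in Cy5 alone, while Cy3, with sham/vehicle RNA in both groups, differed by 0.32. The difference between the effects was 1.33 with median centring, with an adjusted p of 0.226, and 1.25 in Cy5 alone, with 0.327. It was called in the other 20 of 22 alternatives tried for it. Among these, the second-probe and updated-name alternatives used the same Ctla4 probe and fit, so they could not differ. Most of the rest left out 1 array.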

How the results depend on the processing

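The counts of called members depended on the processing. With the scanner software's log ratio, limma called 13 members in obstruction/vehicle against sham/vehicle, 8 in obstruction/Eviprostat against obstruction/vehicle, 2 in sham/Eviprostat against sham/vehicle, 4 in obstruction/Eviprostat against sham/Eviprostat, 5 for the difference between the effects and 11 for any difference, while it called 40.1% of all probes in the first comparison, against 11.6% as reported. Median centring called 0 members in all 6, with 4, 4, 1, 0, 2 and 3 at an unadjusted p under 0.05 in that order. It moved the split of all probes called in the first comparison from 2583 higher and 1608 lower to 1613 and 175, and the scanner software's ratio moved it to 5928 and 8552. In the second comparison 1409 higher and 2127 lower became 132 and 1197 with median centring and 7821 and 5700 with the scanner software's ratio. Median centring also turned 314 and 238 into 62 and 2 in sham/Eviprostat against sham/vehicle, and 350 and 473 into 33 and 107 in obstruction/Eviprostat against sham/Eviprostat. The scanner software's ratio turned the same counts into 1771 and 1652, and into 2038 and 2241. Member counts whose share of all probes is not given beside them are not a result about the members. With the replicate block the counts were 8, 5, 1, 2, 3 and 7 in the same order, and it changed no call beyond those named beside the results. An offset of 10 gave 0 in obstruction/Eviprostat against sham/Eviprostat (2 at an unadjusted p under 0.05) and 1 for any difference. Cy5 alone gave 0 in the comparisons of sham/Eviprostat with sham/vehicle and with obstruction/Eviprostat (0 and 0 at an unadjusted p under 0.05). Slides 2 and 3 gave 1 in obstruction/Eviprostat against obstruction/vehicle and 2 in obstruction/Eviprostat against sham/Eviprostat. The 6 arrays alone gave 1, 1 and 0 (2 at an unadjusted p under 0.05) in the first 3 comparisons.

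Leaving out 1 array gave 2 to 6, 1 to 5, 0 to 1, 0 to 1, 1 to 3 and 1 to 3 called members in the same order, with 1 to 3 members at an unadjusted p under 0.05 where the count was 0; the highest count in the first 2 came without obstruction/vehicle replicate 2. For the 11 genes followed in the comparisons listed for them, 687 values kept their side of the threshold, 39 lost a call, 24 gained one and 0 reversed a called direction; uncalled values near 0 could change sign. The 687 include the second-probe and updated-name alternatives, which could not differ for a gene that kept the same probe. Weak signal limits all members near background, and 3 arrays per group limit the precision.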
